A study of Mus musculus with 4 samples.

Results

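Ackr4, a scavenger receptor for chemokines, is described here with the other atypical chemokine receptors Ackr1, Ackr2 and Ackr3 and with Cxcr4 and Ccr7, the signalling receptors that share ligands with Ackr3 and Ackr4. Of these 6 genes, 3 had a named probe set, 1 each for Ackr4, Cxcr4 and Ccr7, among 1246 probe sets and 909 named genes in all. Ackr1, Ackr2 and Ackr3 were not found among the named probe sets, and their levels are not analysed here. The group was selected on the streptozotocin difference of Ackr4 within each culture of these same arrays, so differences between streptozotocin and control are given for its members as a description with no test.

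The data were 4 arrays of RNA from cultured vascular smooth muscle cells, the contractile cells of the artery wall, taken from wild-type mice. All cells, controls included, were kept under osteogenic conditions, in which smooth muscle cells take on features of bone cells. For 2 arrays the medium also held 0.4 mM streptozotocin, a glucosamine-linked alkylating agent used to destroy pancreatic beta cells. The other 2 arrays were controls without it. The titles of all 4 samples carry "3w", which they do not explain, so the length of the treatment is not known here. Each arm held a cell sample named WTA and one named WT2, called cultures below. Whether these are separate animals or clones is not stated in the labels. In the comparison of streptozotocin with control, p-values thus measure the spread between these samples, which may be technical. In the comparison of WTA with WT2, they measure how unequal the streptozotocin differences of the cultures were, and no spread between replicates of a culture. Precision is limited by having 4 arrays. Values are log2 expression made with RMA, so 1 unit is a doubling. The array medians lay between 5.83 and 5.87, and a probe set of an array's lower quartile (below about 4.39 to 4.40) holds background as well as signal.

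Atypical chemokine receptors bind chemokines without the usual G protein signal. They take their ligands into the cell for breakdown or carry them across it, and so shape chemokine gradients. Ackr4 removes the homeostatic chemokines Ccl19, Ccl21 and Ccl25. Ackr3 removes Cxcl12 and Cxcl11. Ackr2 degrades inflammatory CC chemokines, and Ackr1, known from red cells and venules, binds inflammatory chemokines of the CC and CXC classes. Cxcr4 answers Cxcl12 with cell migration, and Ccr7 guides dendritic cells and T cells towards Ccl19 and Ccl21.

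Ackr4 was higher with streptozotocin on both arrays, and of the 3 measured genes it alone lay above the array median. Its log2 value was 6.89 in WTA and 8.67 in WT2 with streptozotocin, against 6.22 in WTA and 6.09 in WT2 without it. The streptozotocin array of WT2 stood highest, that of WTA stood next, and the control arrays lay close to each other and just above the array median. The groups did not overlap. Means were 7.78 ± 1.26 in treated cells and 6.16 ± 0.09 in controls (SD, n = 2 each), so the spread was wide with streptozotocin and narrow without. Within the cultures streptozotocin minus control was 0.67 in WTA, or 1.59-fold, and 2.57 in WT2, or 5.96-fold. Of the 1246 probe sets, 10.8% had both streptozotocin arrays above both control arrays. A difference of at least 1.5-fold upwards was found for 0.642% of probe sets in WTA, for 4.82% in WT2 and for 0.562% in both, Ackr4 among them each time. From the top, the difference of Ackr4 ranked 6 in WTA and 3 in WT2. These ranks restate the values that chose the gene. Without the streptozotocin array of WT2, the difference between the arms was 0.73 in place of 1.62. In bulk RNA, more cells with the transcript and more transcript per cell cannot be told apart.

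**Figure D1:**
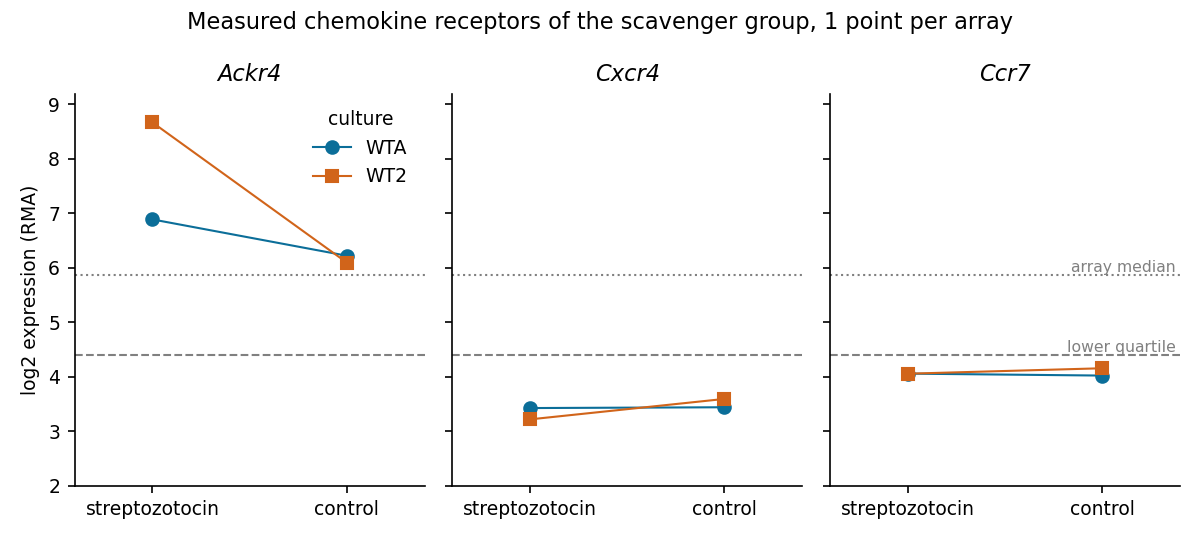
Log2 expression of Ackr4, Cxcr4 and Ccr7 on each array, with streptozotocin at the left and control at the right of each panel, circles for WTA and squares for WT2; the dotted line marks the highest array median and the dashed line the highest array lower quartile. Ackr4 stands above the median line on all 4 arrays and reaches 8.67 in WT2 with streptozotocin, while Cxcr4 and Ccr7 stay below the lower quartile.

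The Ackr4 identifier carries the mark s, which can mean that its probes match more than 1 transcript, and the probe sequences were not used here. In the RefSeq annotation of mouse assembly GRCm38.p6, Ackr4 lies inside Acad11, an acyl-CoA dehydrogenase gene on the opposite strand. Whether the probe set also reads other transcripts was not tested. The 300 bases around the annotated start, from 250 before to 50 after it, are shown for the member that differed and for Cxcr4, which was near background, as RefSeq (GRCm38.p6) gives them. Ccr7 has no entry in that table. Both run 5′ to 3′ on the gene's strand, the minus strand, and capitals mark matches to the motifs listed after them. The Ackr4 stretch is chr9:104126594-104126893, inside Acad11, and the Cxcr4 stretch is chr1:128592250-128592549.
Ackr4: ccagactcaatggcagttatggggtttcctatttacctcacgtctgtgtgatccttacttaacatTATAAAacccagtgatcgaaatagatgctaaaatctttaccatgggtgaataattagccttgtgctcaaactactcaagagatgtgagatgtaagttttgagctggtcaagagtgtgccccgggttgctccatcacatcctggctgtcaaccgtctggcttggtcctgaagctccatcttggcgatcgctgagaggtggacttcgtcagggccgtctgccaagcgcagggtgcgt
Cxcr4: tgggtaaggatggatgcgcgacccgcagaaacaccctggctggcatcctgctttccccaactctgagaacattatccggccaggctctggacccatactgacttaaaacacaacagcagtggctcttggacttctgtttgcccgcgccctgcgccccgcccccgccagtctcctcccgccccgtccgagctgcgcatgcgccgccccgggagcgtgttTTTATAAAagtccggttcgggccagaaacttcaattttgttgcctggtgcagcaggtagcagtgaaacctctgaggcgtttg
Both strands were searched for the letters TATAAA of the box known by that name, for TGTGGT, the core bound by Runx factors (the study's design names Runx2), for TGANTCA, the AP-1 site, for the CArG box of smooth muscle genes and for the NF-kB site. The only matches were to TATAAA, at -185 in Ackr4 and at -30 in Cxcr4, where a match on the other strand begins at -32 and overlaps it. Of 32851 such stretches in the mouse genome 13.6% held TATAAA, 16.8% TGTGGT, 7.81% TGANTCA, 1.63% a CArG box and 8.46% an NF-kB site. The stretch of Ackr4 had 48.7% G and C, that of Cxcr4 59.3%, and the median stretch 52.7%. A match describes letters in this window and is no sign of binding.

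Cxcr4 and Ccr7 lay below the lower quartile on every array. Cxcr4 stood at 3.42 in WTA and 3.22 in WT2 with streptozotocin, against 3.44 in WTA and 3.59 in WT2 without it. Both streptozotocin arrays lay below both control arrays, by a margin that was narrow in WTA, as was the case for 13.8% of all probe sets. Its differences were -0.01 in WTA and -0.38 in WT2, on means of 3.32 ± 0.15 in treated cells and 3.52 ± 0.11 in controls (SD, n = 2 each). Ccr7 stood at 4.06 in WTA and 4.06 in WT2 with streptozotocin, against 4.02 in WTA and 4.16 in WT2 without it. Here the groups overlapped, with differences of 0.04 in WTA and -0.10 in WT2. At such levels differences are compressed by background, so neither gene is shown to be unexpressed or to be unaffected.

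The cultures themselves were compared in a fit with treatment and culture across all probe sets. The choice of the genes had not used this contrast, but the contrast is not independent of that choice. It rests on the same arrays, and for Ackr4 on the high streptozotocin array of WT2. Ackr4 averaged 6.55 in WTA and 7.38 in WT2, a difference of -0.83 (SE 0.50, 95% interval -2.26 to 0.61, limma adjusted p = 0.532). The arrays of the cultures overlapped, and the untreated cells of WTA stood slightly above those of WT2. Without the streptozotocin array of WT2, and with culture as the only term, the difference was 0.46. Cxcr4 differed by 0.03 (95% interval -0.35 to 0.40, limma adjusted p = 0.954), and Ccr7 by -0.07 (-0.35 to 0.22, limma adjusted p = 0.816). Thus 0 of the 3 genes passed, where limma called 2.25% of all probe sets. The arrays of WTA and WT2 did not overlap for 49% of all probe sets. For Ackr4 and Cxcr4 overlap was fixed in advance, since both treated arrays lay above or below both controls, so it is no result. For Ccr7 the arrays of WTA and WT2 overlapped as well. Whether the streptozotocin difference of Ackr4 was unequal in WTA and WT2 could not be tested, since each arm of a culture held 1 array.

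The measured genes on a list of Ackr4 ligands, of which Ccr7 shares Ccl19 and Ccl21, differed by at most 0.40 in either culture. The list may not hold every ligand of Ackr4. Of 7 listed genes 5 were measured, 3 higher and 1 lower with streptozotocin in both cultures, where 22.6% and 28.5% of all probe sets were higher and lower in both. Ccl25, a chemokine of thymus and gut that Ackr4 takes up, stood at 4.91 in WTA and 4.64 in WT2 with streptozotocin, against 4.51 in WTA and 4.32 in WT2 without it. Its differences were 0.40 in WTA and 0.33 in WT2, the groups did not overlap, and the values were low on the array. Ccl21a and Ccl21c, which encode near-identical forms of the lymph node chemokine Ccl21 and cannot be told apart with certainty, differed by 0.06 and 0.02 in WTA and by 0.11 and 0.22 in WT2. Ccl20 and Ccl22, for which binding by Ackr4 has also been described, had differences between -0.08 and 0.06. The median of the 5 was 0.08, beside -0.01 over all named genes.

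Cxcl12, the ligand of Cxcr4 and Ackr3, was the 1 measured gene of its list of 4. Its brighter probe set stood at 13.98 in WTA and 13.66 in WT2 with streptozotocin, against 13.99 in WTA and 13.63 in WT2 without it. The treated and untreated values of each culture were thus nearly equal. Its second probe set differed by -0.34 in WTA and 0.56 in WT2, so the probe sets disagree in size. Near the top of the scale (13.99 is the highest value in the table) differences can be compressed as well.

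The inflammatory chemokines that Ackr1 and Ackr2 bind had the widest differences of the 3 ligand lists. Of 14 such genes 13 were measured, 6 of them at least 1.5-fold higher with streptozotocin in WT2 and 2 at least 1.5-fold different in WTA, Ccl8 upwards and Ccl11 downwards. Over all probe sets 4.82% were that much higher in WT2, 2.33% were that much different in WTA, and 8.35% were at least 1.5-fold different in either direction in at least 1 culture. Ccl7, an attractant of monocytes, differed by 0.45 in WTA and 2.24 in WT2, and Ccl8, a relative of it, by 1.15 in WTA and 0.61 in WT2. The neutrophil attractants Cxcl1 and Cxcl5 differed by -0.43 and -0.19 in WTA and by 2.11 and 1.86 in WT2. Ccl5, which attracts T cells and monocytes, differed by -0.12 in WTA and 1.07 in WT2. Ccl11, an attractant of eosinophils, differed by -0.78 in WTA and 0.66 in WT2 and was named after its values were seen. Ccl24 differed by -0.06 in WTA and -0.16 in WT2. Of the 13 genes 2 were higher and 4 lower in both cultures, and their median was 0.05.

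The arrays behind these differences were not the same. For Ccl7 the values were 10.60 in WTA and 10.76 in WT2 with streptozotocin, against 10.15 in WTA and 8.52 in WT2 without it, so the control array of WT2 was the low one. For Cxcl5 they were 6.67 in WTA and 8.73 in WT2 with streptozotocin, against 6.86 in WTA and 6.86 in WT2 without it. There, as for Ackr4, the streptozotocin array of WT2 was the high one.

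**Figure D2:**
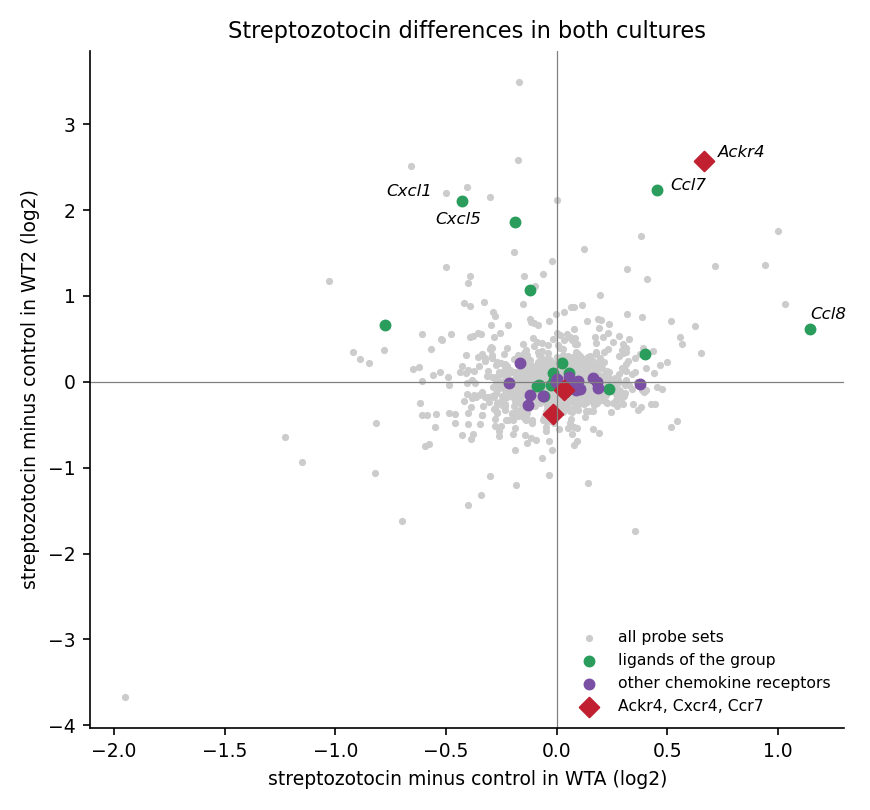
Streptozotocin minus control (log2) in WTA on the horizontal axis and in WT2 on the vertical axis, 1 grey point per probe set, with the ligands in green, the other chemokine receptors in purple and Ackr4, Cxcr4 and Ccr7 as red diamonds. Ackr4 lies at 0.67 and 2.57, far from the origin on both axes, while Cxcr4, Ccr7 and the other receptors lie near the centre.

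Chemokine receptors other than those of the group give the setting for Cxcr4 and Ccr7. Of 19 such genes 16 were measured, and all 16, with Cxcr4 and Ccr7, lay below the array median on every array. With those 2 genes, 10 of the 18 lay below the lower quartile on every array. Differences of the 16 ran from -0.22 to 0.38 in WTA and from -0.27 to 0.22 in WT2, so 0 of 16 reached 1.5-fold. Of the 585 probe sets that lay below the median on every array, 1.03% reached it in either culture, so such a count says little about these receptors. The largest mean differences were at Ccr4, a receptor of T cells, with -0.13 in WTA and -0.27 in WT2, and at Ccr1l1, with 0.38 in WTA and -0.03 in WT2. After them came Cxcr5 (mean -0.13), Cx3cr1 (-0.11), Ccr10 (-0.11) and Cxcr2 (0.11). Ackr4 was the 1 gene among the 19 measured chemokine receptors that lay above the array median.

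Other receptors and antagonists that hold back cytokines were set beside Ackr4, 4 of 8 listed genes being measured. Il13ra2, a decoy receptor of interleukin 13, stood at 4.02 in WTA and 6.68 in WT2 with streptozotocin, against 4.19 in WTA and 4.10 in WT2 without it. It shared with Ackr4 the high streptozotocin array of WT2 but was not higher in WTA. Il1r2, a decoy of interleukin 1, differed by -0.28 in WTA and 0.76 in WT2. Il1rn, the interleukin 1 receptor antagonist, differed by -0.89 in WTA and 0.26 in WT2, and Il22ra2, a soluble decoy of interleukin 22, by -0.04 and -0.11. Over the 18 ligands, 16 other receptors and 4 decoys or antagonists, limma called 0 genes between streptozotocin and control. It called 0 of 1246 probe sets (0%) in all, with 25 at an unadjusted p under 0.05, and 80 at that level with the replicate number as a block. After adjustment the fit with the block also called 0, so these unadjusted counts are no list of changed genes.

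**Figure D3:**
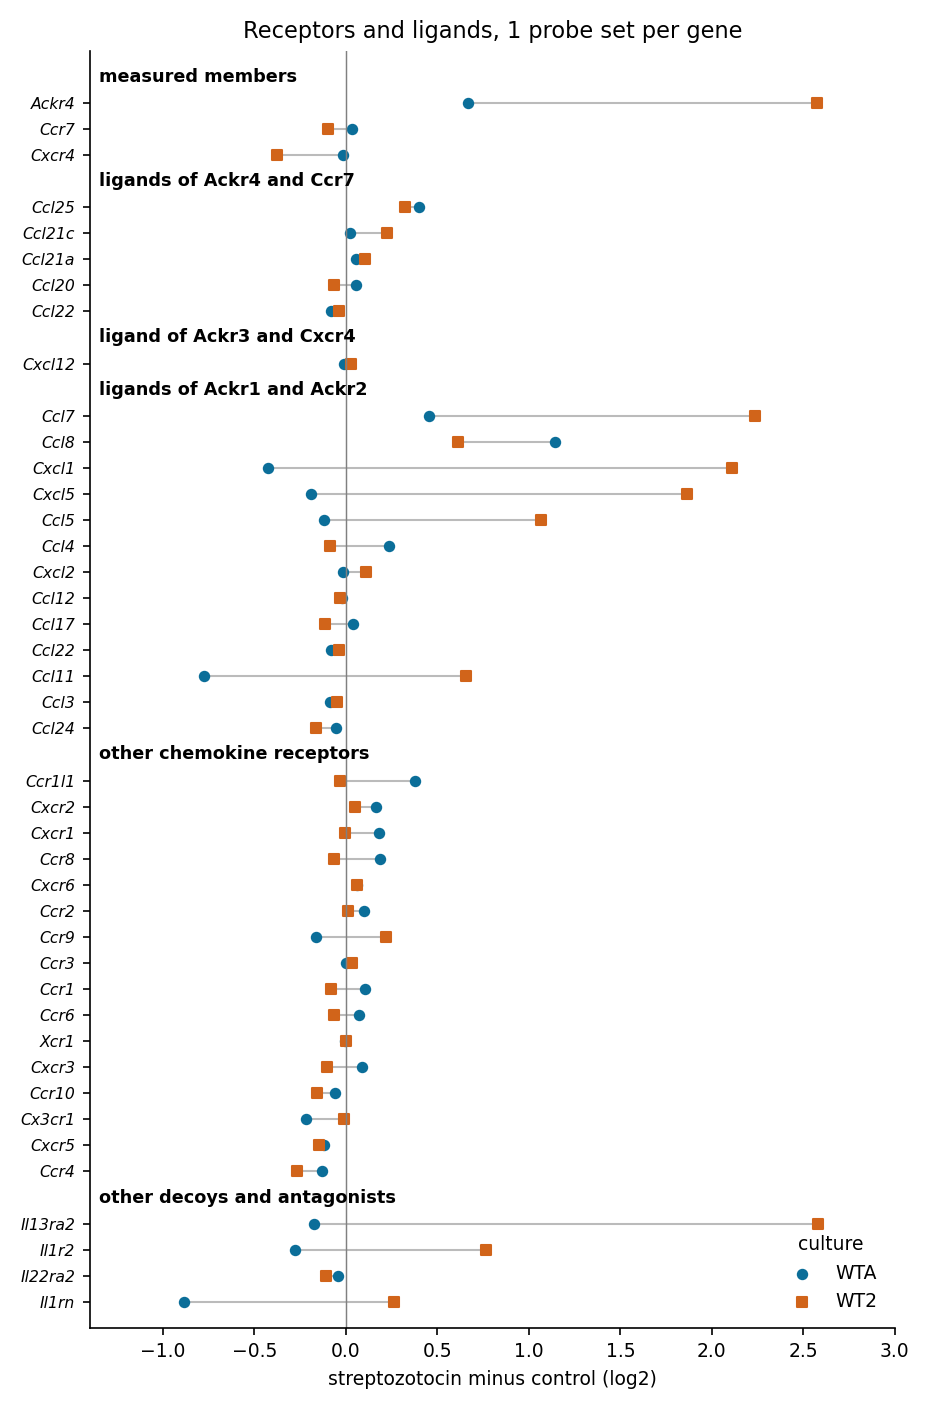
Streptozotocin minus control (log2) for each measured gene, grouped by role and ordered by the mean of both cultures, with circles for WTA and squares for WT2 joined by a line. The lines of the chemokine receptors other than Ackr4 are short and lie around 0, and the long lines of Ackr4, Ccl7, Cxcl1, Cxcl5 and Il13ra2 end above 1.8 in WT2.

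The genes whose 4 values ran most like those of Ackr4 were found by the root mean square distance between log2 values centred on their mean over the arrays, among 906 other genes. The nearest were Cxcl14 (0.37), Il13ra2 (0.38), Cxcl5 (0.41) and Wnt4 (0.43), followed by Olr1 (0.62), where the median gene lay at 1.04. Cxcl14, a chemokine of epithelia, differed by 0.00 in WTA and 2.12 in WT2, and Wnt4, a Wnt ligand, by -0.30 in WTA and 2.15 in WT2. Olr1, a receptor for oxidised low-density lipoprotein, differed by 1.03 in WTA and 0.91 in WT2. The 4 nearest genes thus shared the high streptozotocin array of WT2 and were not higher in WTA, and Olr1 was the 1 of the 5 that was higher in both. With 4 arrays, likeness of this kind rests on few values. A gene that hardly moves lies about as far from Ackr4 as the median gene does. The high streptozotocin array of WT2, which also entered the choice of Ackr4, weighs most in these distances. For Cxcr4 the nearest gene was Il5 (0.02), and for Ccr7 it was Inhbe (0.01). Profiles that hardly move are all alike, and the median gene lay at 0.17 and 0.11 from these.

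**Figure D4:**
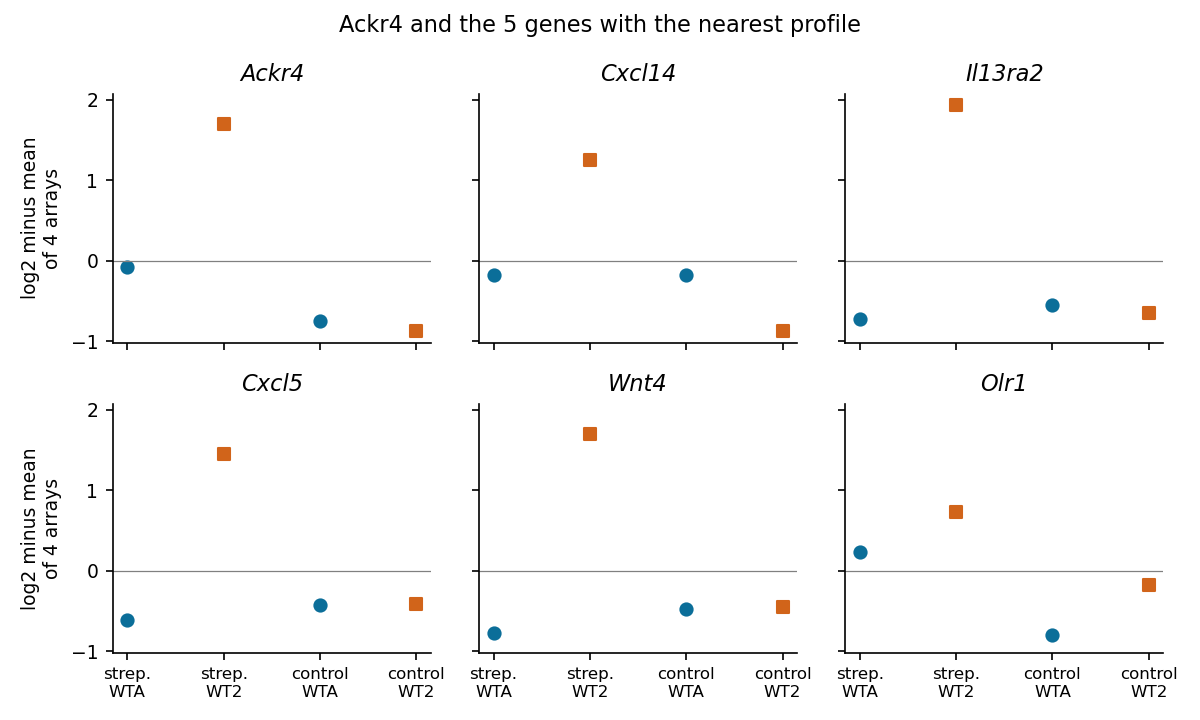
Log2 expression minus the mean over the 4 arrays for Ackr4 and the 5 genes nearest to it, with streptozotocin arrays at the left and control arrays at the right, circles for WTA and squares for WT2. In each panel the streptozotocin array of WT2 is the highest, and for Ackr4 and Olr1 the streptozotocin array of WTA also lies above both control arrays.

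Markers of cell types were read beside these values. Of 8 smooth muscle markers 1 was measured, Pdgfrb, at 9.44 in WTA and 9.38 in WT2 with streptozotocin, against 9.68 in WTA and 9.57 in WT2 without it. The label of the cells could therefore not be checked with contractile genes. Of 6 fibroblast markers 4 were measured, and all 4 (Pdgfra, Lum, Dcn and Cd34) were lower in the treated cells of both cultures. The same held for Pdgfrb and for 28.5% of all probe sets. The list mean was 10.41 in WTA and 10.92 in WT2 with streptozotocin, against 10.79 in WTA and 11.56 in WT2 without it. Of 16 leukocyte markers 6 were measured, with a list mean of 4.64 in WTA and 4.49 in WT2 with streptozotocin, against 4.49 in WTA and 4.61 in WT2 without it. Csf1r, the macrophage receptor of colony-stimulating factor 1, was the 1 leukocyte marker above the array median. Of 11 endothelial markers 4 were measured, with a list mean of 5.90 in WTA and 4.36 in WT2 with streptozotocin, against 5.63 in WTA and 4.21 in WT2 without it. Esm1, a proteoglycan secreted by endothelial cells, averaged 9.16 in WTA and 4.23 in WT2 (difference 4.93, SE 0.10, limma adjusted p = 0.00304), and its streptozotocin differences were 0.33 in WTA and 0.50 in WT2. Its second, dimmer probe set differed by 2.93 between WTA and WT2 (limma adjusted p = 0.0213). The streptozotocin differences of that probe set were 0.06 in WTA and 0.52 in WT2. Selp, the adhesion receptor P-selectin, differed by 0.65 in WTA and 0.33 in WT2 with streptozotocin. Pecam1 and Sele averaged 3.88 and 3.30 over the 4 arrays, below the lower quartile. WTA minus WT2 was 0.79 for Selp, 0.15 for Pecam1 and 0.05 for Sele. Esm1 thus made most of the gap between the cultures in the endothelial list mean. Of 6 lymphatic endothelial markers 0 were measured, although Ackr4 is known from such cells. The part of other cell types in the Ackr4 values was not tested.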

How the data were processed

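Total RNA was extracted with Trizol and labelled with biotin for Affymetrix arrays, per the labels' protocols. The deposited log2 values per probe set come from RMA (per the submitters' processing notes), whose version is not given in the sources used here. By default RMA equalises the arrays' distributions and compresses dim signals.

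Probe sets were named from the unversioned RefSeq accession in their identifier (mouse table of GRCm38.p6, for names only): 963 of 1246 had 1 symbol, 283 none. For a gene in a list, the brightest probe set on average was used. Groups and replicate numbers came from the titles.

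Limma 3.58.1 in R 4.3.3 (lmFit, eBayes) was fitted across all probe sets, with Benjamini-Hochberg adjustment and a threshold of 0.05: streptozotocin against control without a block, and WTA against WT2 with treatment as a term (1 residual degree of freedom). A replicate number belongs to 1 named cell sample across both arms and so pairs the arrays (correlation of deviations from group means 0.600 across probe sets). The fits were tested on simulated data. Recovery of large changes was required there of the culture fit and of the streptozotocin fit with the replicate block. It was not required of the main streptozotocin fit, so the lack of calls in that fit does not show that changes were absent. The streptozotocin fit with the replicate block also called 0 probe sets. Recovery of smaller changes was not required of any fit.

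The members and lists were chosen with earlier results of these data known. All measured members were named, with up to 6 genes per list by largest mean difference, the 5 genes nearest to Ackr4 and the 1 nearest to Cxcr4 and to Ccr7; cell type markers and exceptions are said to be so. Another receptor gene is not reported here. Alternatives were an intensity trend, median centring, quantile normalization, dropping the dimmer 50% of probe sets, the replicate block and each array left out in turn.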

Additional observations from a re-analysis of the deposited data

Results flagged for a closer look

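Among the 41 genes with a measured value that are named above, 16 had opposite signs of the streptozotocin difference in the cultures, where 47.7% of all probe sets had. The difference in WTA minus that in WT2 was -2.76 for Il13ra2, -2.54 for Cxcl1, -2.45 for Wnt4, -2.05 for Cxcl5 and -1.43 for Ccl11. It was -1.19 for Ccl5, -1.15 for Il1rn, -1.04 for Il1r2 0.44 for Sele and 0.70 for Csf1r. For the other genes it was -0.11 (Pecam1), -0.036 (Cxcl12), 0.12 (Ccl20), 0.13 (Inhbe), 0.14 (Ccr7) and 0.41 (Ccr1l1), and the differences behind these lay between -0.10 and 0.38. Each arm of a culture held 1 array, so these differences were not tested.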

How the results depend on the processing

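The streptozotocin comparison called 0 probe sets in limma's fit and 0 under each alternative: median centring, quantile normalization, the filter on dim probe sets, the intensity trend, the replicate block and each array left out. The streptozotocin difference of Ackr4 was 0.70 in WTA and 2.56 in WT2 after median centring, and 0.72 in WTA and 2.45 in WT2 after quantile normalization. The mean of both cultures was 1.62 with and without the replicate block, and ranged from 0.73 to 2.51 with 1 array left out, the low value being without the streptozotocin array of WT2. For Cxcr4 this range was -0.30 to -0.09, and for Ccr7 -0.10 to 0.03, positive without the control array of WT2. The sign for Cxcr4 in WTA turned with median centring (0.02). Between WTA and WT2, limma called 28 probe sets, against 8 after quantile normalization and 2 of 623 with the dim filter, which also drops Cxcr4 and Ccr7, and against 37 after median centring and 35 with the intensity trend. With culture as the only term and 1 array left out it called from 0 to 18: 0 without either array of WTA, 12 without the control array of WT2 and 18 without its streptozotocin array. In those fits WTA minus WT2 ranged from -2.11 to 0.46 for Ackr4 and from -0.16 to 0.22 for Cxcr4, so both signs turned, in each case without the streptozotocin array of WT2, and from -0.12 to -0.02 for Ccr7. The cause was not tested, though leaving out an array also unbalances the treatment between the cultures. Low signal limits what the values of Cxcr4 and Ccr7 can show.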

Other observations

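Across the array, 117 probe sets spanned at least 1 log2 unit over the 4 arrays. For 55 of them 1 array was separated from the other arrays by more than 50% of that span. The array was most often a low control array of WT2 (22 probe sets, Ccl7 and Ccl5 among them), a high streptozotocin array of WT2 (14, with Ackr4, Cxcl5, Il13ra2 and Il1r2 among them) or a high control array of WT2 (11, with Lum). A high streptozotocin array of WTA stood out for 2, Ccl8 and Selp. This grouping was chosen after the data were seen and is given as a description.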
